A study of Mus musculus with 30 samples.

Results

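A small set of liver transcripts was lower than vehicle after 5 days of PPAR-alpha agonist treatment and close to vehicle after 24 h. A probe set belonged to it if its group mean was at most 0.65 times the 5-day vehicle mean under all 3 agonists at 5 days, and between 0.8 and 1.3 times the 24 h vehicle mean under all 3 agonists at 24 h. Its intensity also had to exceed 50, the lowest value of the table, on all 30 arrays, and controls were left out. These conditions were met by 16 of 4100 probe sets above 50 on every array (0.39%), out of 12422 that are not controls and 12488 in all. The members were thus chosen by their agonist-to-vehicle ratios at both times. Those ratios, and the calls of the same contrasts, are given below as a description and not as a test.

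PPAR-alpha is a nuclear receptor that binds DNA together with the retinoid X receptor and is activated by fatty acids and by synthetic agonists. In the liver it is known for inducing genes of fatty acid oxidation, and agonists are also known to lower other transcripts, among them genes of inflammation and the acute phase response. The files used here do not pair the probe sets with genes, so what the members encode is not stated. They are numbered 1 to 16 from the lowest to the highest mean ratio to vehicle at 5 days, and 4 of them are also named by their probe set IDs.

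Male C57Bl/6 mice were given water, the vehicle, or 1 of the piperidine agonists CP-775146, CP-868388 and CP-865520. The dose was 1 mg/kg each day, treatment lasted 24 h or 5 days, and 1 array was hybridised per liver. There were 4 arrays in 7 groups and 2 arrays under CP-775146 at 5 days, where the spread is the least well known. The arrays were counted as different mice. Between 5566 and 6704 probe sets that are not controls lay above 50 on an array, no pair of arrays was identical, and the number of arrays limits the precision. Since the tissue was whole liver, fewer cells of a type and less RNA per cell cannot be told apart. Markers of hepatocytes or other liver cells need gene names and were not checked here.

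Lower signals at 5 days were common, and a near-vehicle signal at 24 h under all 3 agonists set these 16 apart from the others. Of the 4100 probe sets, 534 were at most 0.65 times vehicle under all 3 agonists at 5 days. Of these, 518 lay outside the 24 h window, and 516 of the 518 had a ratio under 0.8 in at least 1 agonist at 24 h. A low ratio under 1 agonist was enough, and the 516 were not split by agonist. Over all 4100 the median 24 h ratio was 0.970 for CP-775146, 0.917 for CP-868388 and 1.03 for CP-865520. The window alone held 1245 of the 4100 probe sets (30.4%). The edges of the rule passed through a continuum: the highest 5-day ratio inside was 0.649 and the next outside was 0.6501, and 14 probe sets inside the window lay between 0.65 and 0.70. On the 24 h side the lowest ratio inside was 0.815 and the nearest outside was 0.798, and 18 probe sets with the 5-day decrease had their lowest 24 h ratio between 0.75 and 0.8.

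At 5 days the mean of the 3 ratios ran from 0.428 for member 1 to 0.633 for member 16, with a median of 0.586. The median ratio was 0.582 for CP-775146, 0.585 for CP-868388 and 0.588 for CP-865520, against 0.861, 0.931 and 0.912 over all 4100 probe sets. Most members therefore lay near the limit, and 4 of the 16 had all 3 ratios at or below 0.60. The ratio differed between agonists by 0.077 in the median member, by 0.00868 in the most even one and by 0.251 in member 1. At 24 h the medians were 0.891, 0.941 and 1.07 in the same order of agonists. Only 4 members lay below vehicle under all 3 agonists at 24 h, and 1 lay above it under all 3. In limma's fit over the 7963 probe sets tested, with an adjusted p under 0.05 as the call, no member was called lower than vehicle at 24 h under any agonist, where 12.6%, 28.2% and 11.3% of the 7963 were, and the 24 h window leaves out clear decreases. Called higher were 0 members for CP-775146, 1 for CP-868388 (member 13) and 1 for CP-865520 (member 15), where 7.36%, 12.4% and 8.93% of the 7963 were. The call of member 13 was lost in 7 of 18 alternatives, among them a covariate for RNA integrity taken from the 5' and 3' control probe sets, quantile normalization and leaving out the 3 arrays with the lowest Gapdh ratios (limma adjusted p from 0.00756 to 0.637), and that of member 15 in 10 of 18 (0.0233 to 0.201). At an unadjusted p under 0.05 the members past the threshold in either direction numbered 1, 2 and 2 of 16, against 2324, 3690 and 2503 of the 7963.

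**Figure D1:**
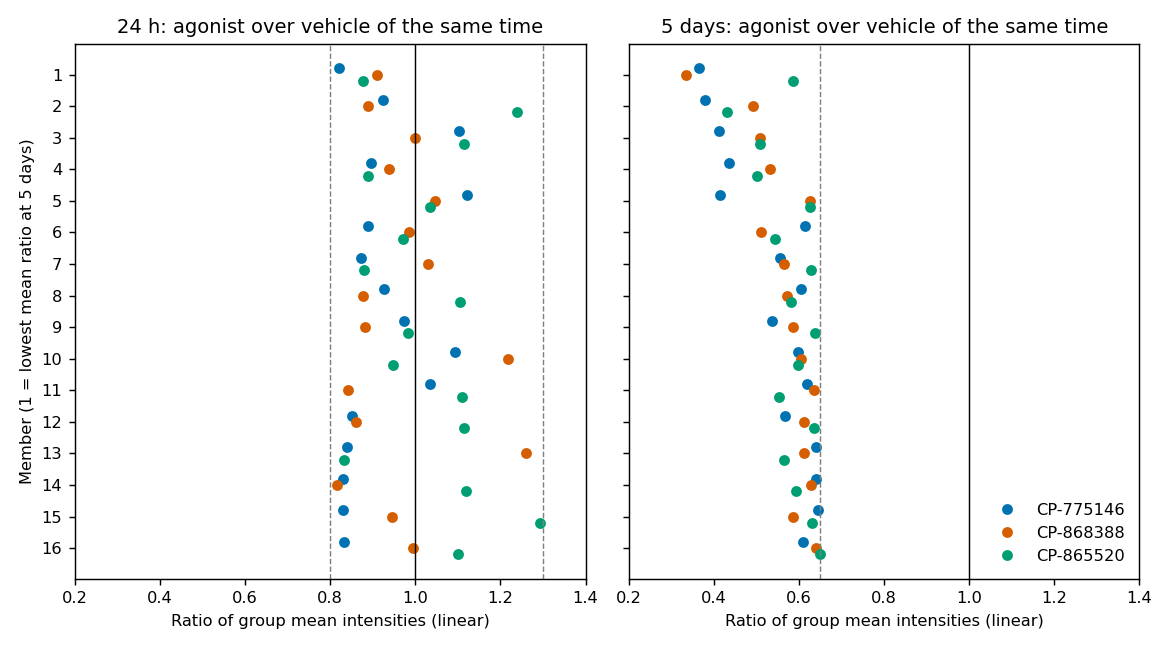
Ratio of the agonist group mean to the vehicle group mean of the same time for the 16 members, at 24 h (left) and 5 days (right), on a linear axis, with 1 point per agonist. Dashed lines mark the limits of the rule (0.8 and 1.3 at 24 h, 0.65 at 5 days); the 5-day points run from 0.334 to 0.649 and the 24 h points from 0.815 to 1.29.

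The probe set 162392_R_AT, member 1, had the lowest mean ratio. Its vehicle arrays read 740, 1085, 1142 and 860 at 5 days. The CP-775146 arrays of that time read 273 and 423, those of CP-868388 read 524, 189, 188 and 379, and those of CP-865520 read 723, 373, 592 and 551. All 10 agonist arrays lay below all 4 vehicle arrays, though the highest of them, 723 under CP-865520, lay just under the lowest vehicle array. At 24 h its vehicle arrays read 513, 627, 380 and 485, and the agonist arrays spread from 204 to 603 around them. The 5-day means were 957 ± 189 under vehicle (SD, n = 4), 348 ± 106 for CP-775146 (n = 2), 320.0 ± 163 for CP-868388 and 560 ± 144.5 for CP-865520 (n = 4). On the log2(value + 50) scale, the differences from vehicle were -1.35, -1.53 and -0.74.

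The probe set 94222_AT, member 2, read 426, 481, 382 and 550 on the 5-day vehicle arrays. It read 200 and 148 under CP-775146, 172, 222, 214 and 294 under CP-868388, and 123, 325, 170 and 172 under CP-865520. The groups did not overlap with vehicle, and 1 CP-865520 array stood above the other three. At 24 h the vehicle arrays read 286, 296, 348 and 218. The CP-775146 arrays of 24 h lay between 236 and 286, those of CP-868388 between 175 and 310 and those of CP-865520 between 305 and 427, all overlapping vehicle. Its 5-day differences from vehicle were -1.19, -0.89 and -1.09 on the log2(value + 50) scale.

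**Figure D2:**
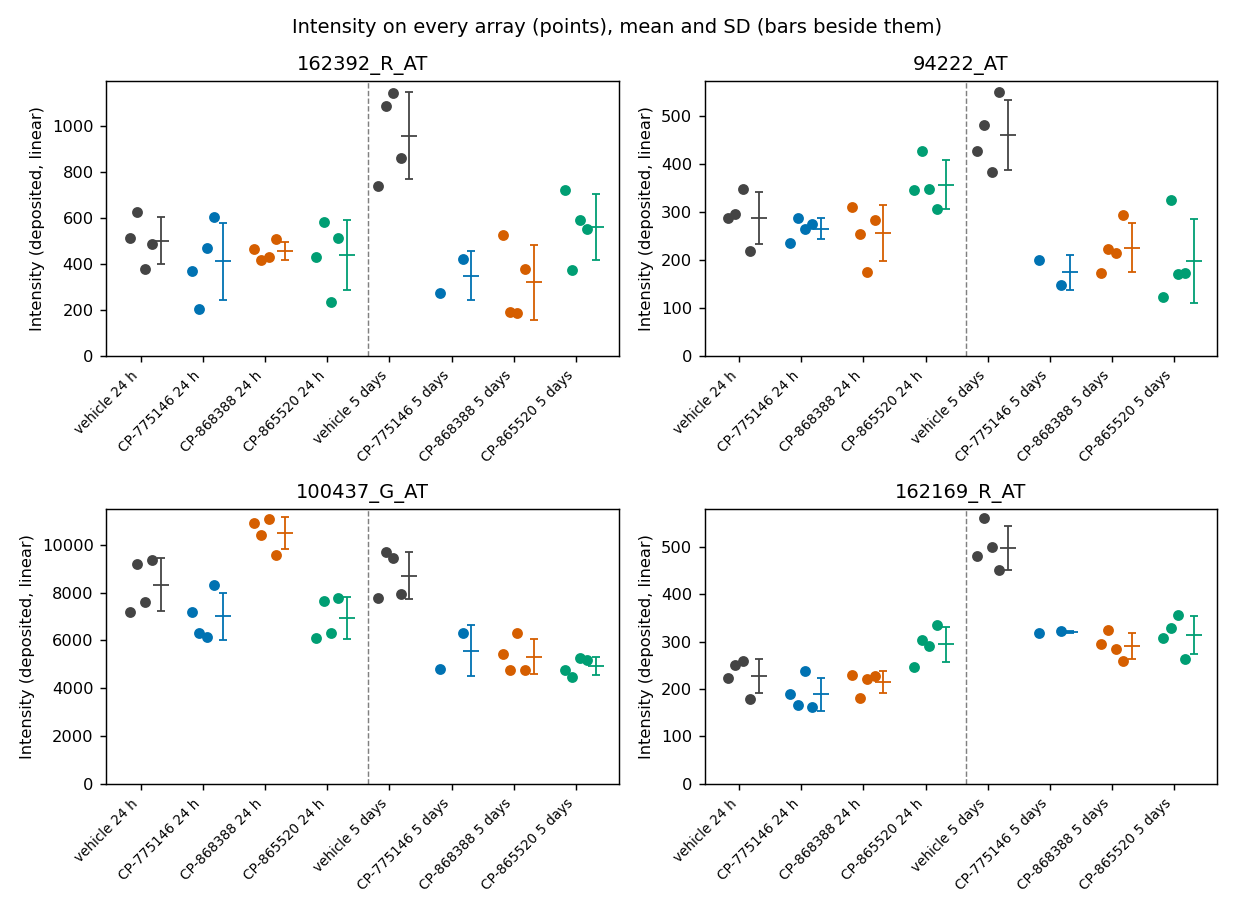
Deposited intensity (linear, from 0) on every array for 162392_R_AT, 94222_AT, 100437_G_AT and 162169_R_AT, in vehicle and agonist groups at 24 h (left of the dashed line) and 5 days (right). Points are arrays and the bars beside them are the mean and SD (n = 4, or 2 under CP-775146 at 5 days); at 5 days every agonist array lies below every vehicle array in all 4 panels.

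Among the other 14 members the groups were as a rule separate at 5 days. Over all 16, the agonist arrays lay entirely below the vehicle arrays in 15 members for CP-775146, 14 for CP-868388 and 13 for CP-865520, where 29.1%, 17.2% and 20.5% of the 7963 probe sets tested did so. In 12 members this held for all 3 agonists, against 13.9% of the 7963. The other four, members 5, 6, 12 and 16, overlapped vehicle in at least 1 agonist. In the fit across all probe sets, all 16 members were called lower at an adjusted p under 0.05 in each 5-day comparison, where 24.8%, 23.8% and 26.8% of the 7963 were called lower. The rule used these contrasts, so the counts describe the choice of members. Leaving out either CP-775146 array at 5 days leaves a lone array, assumed to vary like the other groups, so only effect sizes are given. Without replicate 2 the log2 difference from vehicle was -1.62 for member 1 and -1.02 for member 2. Without replicate 1 it was -1.07 for member 1 and -1.35 for member 2. Over all probe sets tested the median was -0.08 without replicate 2 and -0.13 without replicate 1.

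The 5-day vehicle livers themselves stood higher than the 24 h vehicle livers in these probe sets. The ratio of the 5-day to the 24 h vehicle mean was above 1 in 16 of 16 members, with a median of 1.52 and a range from 1.02 to 2.19. Over all 4100 probe sets the median was 0.963 and 43.8% were above 1, and among the 534 with the 5-day decrease 156 were above 1, with a median of 0.868. It exceeded 1.3 in 11 members, against 15.1% of the 4100. The 5-day vehicle arrays lay entirely above the 24 h vehicle arrays in 10 members, where 10.2% of the 7963 did so, and 11 members were called higher, where 11.2% were. The 5-day vehicle mean is the denominator of the 5-day ratio, so a high value there favours membership. The 24 h vehicle mean is the denominator of the 24 h ratio, so a low value there helps to keep that ratio above the lower edge of the window. The 534 were chosen by the 5-day limit without the window, so they share the 5-day denominator. Most of them had a ratio under 0.8 in at least 1 agonist at 24 h. Their median of 0.868, against 0.963 of all 4100, therefore cannot tell the parts of the denominators apart. The part of each denominator was not tested, and nothing is read from the counts of members.

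Set against the 24 h vehicle, the 5-day agonist levels were less far down. This compares arrays of different times, and 1807 of the 7963 probe sets were called between the vehicle groups alone. Time cannot be told apart here from any other difference between the 24 h and 5-day arrays. The median member stood at 0.807 for CP-775146, 0.863 for CP-868388 and 0.917 for CP-865520, against 0.936, 0.997 and 0.985 over the 4100 probe sets. Only 3 of the 16 were at most 0.65 times the 24 h vehicle under all 3 agonists, 10 were below it under all 3, and 3 were above it under all 3. Against the 24 h mean of the same agonist, 7 members were lower at 5 days under all 3 agonists and 1 was higher under all 3. In all 16 members the ratio to the 24 h vehicle was thus higher than the ratio to the 5-day vehicle, and the name of late repression describes the latter.

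**Figure D3:**
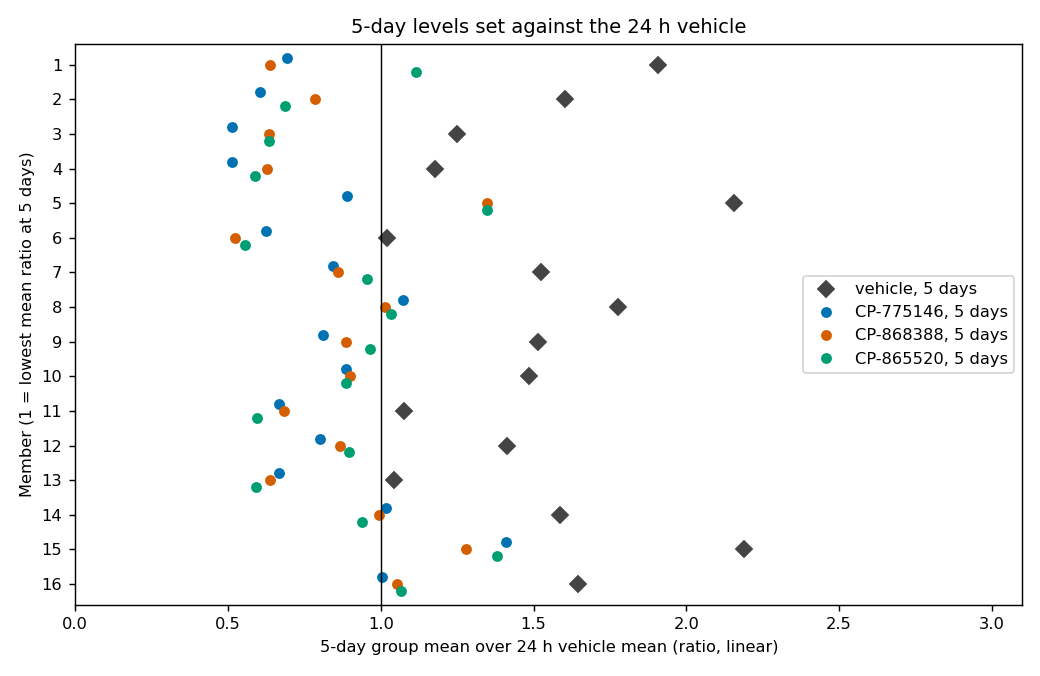
5-day group means of the 16 members divided by the 24 h vehicle mean of the same probe set (linear axis, 1 is the 24 h vehicle level), with a diamond for the 5-day vehicle and circles for the agonists. All 16 diamonds lie above 1, from 1.02 to 2.19, and the agonist points lie on both sides of 1, from 0.512 to 1.41.

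The members ran from a fall below both vehicle groups to a level above the 24 h vehicle. In members 3, 4, 11 and 13 all 5-day agonist arrays lay below all 24 h vehicle arrays as well. That is 4 of 16, a share close to the 21.5% of all 7963 probe sets that did so. Member 3 went from 194 ± 33.5 under 24 h vehicle and 242 ± 28.8 under 5-day vehicle (SD, n = 4) to 99.5 ± 4.95 (n = 2), 123 ± 7.81 and 123 ± 24.6 (n = 4) under the 3 agonists at 5 days. Member 4 went from 16934 ± 1097 and 19936 ± 1190 to 8678.5 ± 1545, 10607 ± 1070 and 9984.5 ± 1413, with the highest 5-day agonist array at 11616 and the lowest vehicle array of either time at 15621. Members 6, 11 and 13 had vehicle ratios under 1.1, from 1.02 to 1.08, so that for these 3 either vehicle gave much the same decrease. Member 6 stood at 232 ± 40.6 and 237 ± 58.7 under the 24 h and 5-day vehicle, and at 145 ± 46.7, 121 ± 29.7 and 129 ± 35.7 under the agonists at 5 days, with 1 CP-775146 array at 178 above the lowest vehicle array at 176.

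The opposite pattern was seen in 162169_R_AT, member 15. Its vehicle arrays read 224, 250, 258 and 178 at 24 h and 481, 560, 499 and 451 at 5 days, without overlap. At 5 days it read 319 and 322 under CP-775146, 295, 325, 285 and 259 under CP-868388, and 307, 328, 357 and 263 under CP-865520. Every 5-day agonist array lay above every 24 h vehicle array and below every 5-day vehicle array. Its ratios to the 24 h vehicle were 1.41, 1.28 and 1.38, while its ratios to the 5-day vehicle were 0.644, 0.585 and 0.630. Members 8 and 16 also stood above the 24 h vehicle under all 3 agonists, by smaller margins, with ratios from 1.00 to 1.07. In member 5 the 5-day vehicle stood at 2.16 times the 24 h vehicle, CP-868388 and CP-865520 also above it and CP-775146 at 0.890 times.

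The change of each response from 24 h to 5 days was below 0 for all 16 members under each agonist, as the rule requires. On the log2(value + 50) scale its median was -0.65, -0.64 and -0.65 for CP-775146, CP-868388 and CP-865520, against -0.06, 0.02 and -0.07 over all probe sets. It was called lower in 5, 8 and 11 of the 16 members, where 2.64%, 1.03% and 9.97% of the 7963 were called lower, and again the rule used these contrasts. Members 3, 4, 8 and 10 were called for all 3 agonists. The share of all probe sets called for all 3 was not counted, so nothing is read from this. Member 4 had changes of -1.05 ± 0.15, -0.82 ± 0.13 and -0.83 ± 0.13 (SE).

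The rule sets no order between agonists, and at 5 days the agonists were compared with each other in 48 member tests over 3 pairs. None of the 48 passed at an adjusted p under 0.05 by limma with Benjamini-Hochberg adjustment over 7963 probe sets, and 2 had an unadjusted p under 0.05, as did 618, 421 and 615 of the 7963 in the 3 pairs. Few probe sets passed between agonists at 5 days, with 0.0753%, 0.0251% and 0.0628% called in the 3 pairs. The limits of the rule hold all 3 agonists under the same bound, which narrows the differences that could be seen. In 44 of the 48 tests the 95% interval lay within 2-fold on the log2(value + 50) scale. The other four belonged to members 1 and 5, and reached a 2-fold difference.

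Member 1, 162392_R_AT, gave the widest gap. CP-868388 minus CP-865520 was -0.79 on the log2(value + 50) scale (95% interval -1.38 to -0.21, limma adjusted p = 0.47), with arrays that overlapped between 373 and 524. CP-775146 minus CP-865520 was -0.61 in the same probe set, with an interval from -1.33 to 0.11. In member 5, CP-775146 minus CP-868388 was -0.54 (-1.14 to 0.06), and its CP-775146 arrays read 220 and 68, far apart. For member 4, CP-775146 minus CP-868388 was -0.29 (-0.53 to -0.06, limma adjusted p = 0.507). These misses of the threshold do not show that the agonists act alike.

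**Figure D4:**
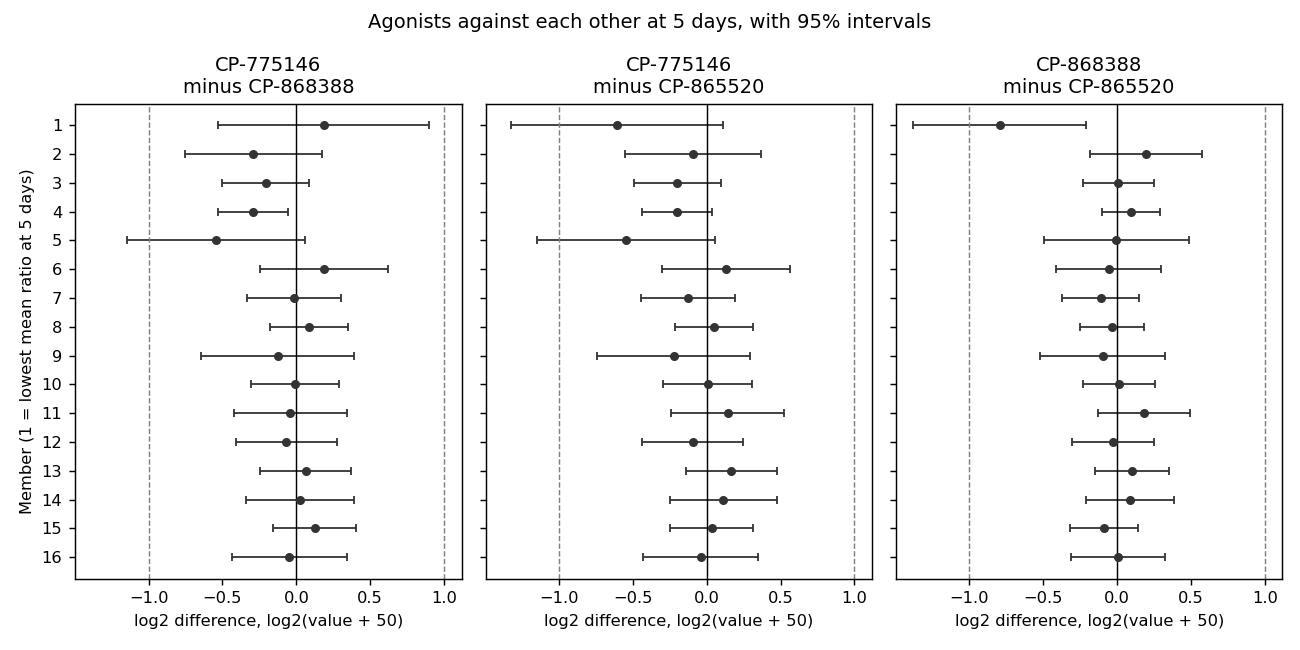
Differences between agonists at 5 days for the 16 members, on the log2(value + 50) scale, with 95% intervals from limma (bars) and dashed lines at a 2-fold difference. None of the 48 differences passed the test; the widest intervals are those of members 1 and 5, and the largest difference is -0.79 for member 1 between CP-868388 and CP-865520.

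At 24 h, where the window of the rule keeps the agonists near vehicle, 6 of 48 member tests between agonists passed. Between CP-868388 and CP-865520 these were 5 of 16 members, where 27.9% of all probe sets passed. Between CP-775146 and CP-868388 it was 1 of 16, where 16.4% were called, and between CP-775146 and CP-865520 none, where 0.100% were called and 4 of the 16 had an unadjusted limma p under 0.05, as did 1022 of the 7963. The called shares are near or below the background of each pair, while the 4 of 16 past the unadjusted threshold are a larger share than their background. Members 10 and 13 were higher under CP-868388 than under CP-865520, where 8.13% of all probe sets were, and members 8, 11 and 15 were lower, where 19.8% were.

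The probe set 100437_G_AT, member 13, differed most between agonists at 24 h. It read 10926, 10417, 11091 and 9564 under CP-868388, against 7214, 6333, 6166 and 8308 under CP-775146 and 6085, 7650, 6297 and 7777 under CP-865520. The CP-868388 arrays also lay above all 4 vehicle arrays of that time, which read 7180, 9192, 7609 and 9390. The difference from CP-865520 was 0.60 ± 0.12 (SE, limma adjusted p = 0.00134), and the call was kept in all 18 alternatives, with an adjusted p between 0.000755 and 0.0459. The difference of CP-775146 from CP-868388 was -0.59 ± 0.12 (SE, adjusted p = 0.00309). At 5 days the arrays of the 3 agonists overlapped, with 4818 and 6322 under CP-775146, 5421, 4762, 6331 and 4767 under CP-868388, and 4757, 4475, 5271 and 5197 under CP-865520, all below the vehicle arrays at 7790, 9705, 9438 and 7941.

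RNA integrity moved with these 24 h groups. For Gapdh, the 5' over 3' control signal was, as log2, -0.36 ± 0.23 (SD, n = 4) under CP-868388, 0.03 ± 0.07 under CP-775146, -0.05 ± 0.27 under CP-865520 and 0.02 ± 0.11 under vehicle at 24 h. With an integrity covariate 2 of the 5 members stayed called between CP-868388 and CP-865520, and the call of 100437_G_AT between CP-775146 and CP-868388 was lost, as it was without the 3 arrays with the lowest Gapdh ratios (limma adjusted p up to 0.266). At 5 days the controls differed. The Gapdh ratio was 0.03 ± 0.04 under vehicle and 0.06 ± 0.20 (n = 2), 0.15 ± 0.13 and -0.10 ± 0.14 (n = 4) under CP-775146, CP-868388 and CP-865520. The beta-actin control ratio was -0.80 ± 0.18 under vehicle and -1.08 ± 0.21, -0.97 ± 0.12 and -1.29 ± 0.25 under the agonists in that order. That of pyruvate carboxylase was -1.40 ± 0.16 under vehicle and -1.80 ± 0.35, -1.76 ± 0.13 and -1.91 ± 0.25 under the agonists. With the covariate, 16, 16 and 15 of the 16 members were called lower than vehicle at 5 days, as were 1893, 1903 and 1715 of the 7963. The rule used this contrast, and the part of RNA integrity in the members' values was not tested.

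What the members share beyond the rule was sought in their probe set design and in how they vary between mice. On this type of array, an F in the ID marks probes shared by a family of similar sequences, an R marks probes picked with relaxed design rules, an S marks probes shared by several transcripts, and a G marks a probe group shared by transcripts. Of the 16 members, 4 carried an F, 4 an R, 1 an S and 1 a G, so 10 of 16 (62.5%) carried a suffix, against 854 of the 4100 probe sets above 50 on all arrays (20.8%). Suffixes F and R together made up 8 of 16, against 14.0% of the 4100 and 15.9% of the 534 with the 5-day decrease. The 5-day to 24 h vehicle ratio ran from 1.65 to 2.19 in the 4 members with an R, from 1.02 to 1.52 in the 4 with an F and from 1.08 to 2.16 in the 6 without a suffix. For the F, S and G members, the signal can be the sum of more than 1 transcript.

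The members did not vary as 1 block between mice of a group. Over the 120 pairs of members, the median correlation of their deviations from the group means across 30 arrays was 0.136, with a range from -0.363 to 0.602, against a median of 0.0483 over all pairs of the 4100 probe sets. A correlation over 0.5 was found in 7 of the 120 member pairs (5.83%) and in 7.02% of all pairs. The highest, 0.602, was between members 8 and 15, both with an R, and the next was 0.582 between members 5 and 7. These values share arrays, scaling and RNA quality and are a description.

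Controls were outside the rule, and Gapdh, a glycolytic enzyme, came close to it. Its middle control probe set stood at 0.511, 0.595 and 0.489 times vehicle at 5 days and at 1.02, 0.641 and 1.06 times vehicle at 24 h, so it left the window only under CP-868388. Its 5-day vehicle mean was 0.825 times the 24 h vehicle mean, where all 16 members were above 1. The 3 control probe sets of beta-actin, a cytoskeletal protein, were outside the window under CP-868388 and in no case met the rule. The 5' set was also outside it under CP-775146 and CP-865520 (0.742 and 0.709), and the middle set under CP-865520 (0.718).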

How the data were processed

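Biotin-labelled RNA from 30 livers was hybridised to expression arrays, and the authors deposited whole-number intensities on a linear scale from 50 to 29064, made with MAS5 per the submitters' processing notes. Which version and target were used, and why 50 is the minimum, is not stated in the labels. Array means lay between 314.1 and 318.2, and 50.29% of deposited intensities were exactly 50. Groups were taken from the sample titles.

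Ratios are of mean deposited intensities. Differences were fitted as log2(value + 50), which understates dim probe sets, in limma 3.58.1 (R 4.3.3; lmFit, eBayes with trend) over all 30 arrays and the 7963 non-control probe sets above 50 on at least 2 arrays, two-sided, with Benjamini-Hochberg adjustment over all 7963. P-values set each difference against the spread of arrays within groups, estimated over all 8 groups and moderated by limma. For the group of 2 arrays this spread comes mostly from the other groups. The fit was tested on simulated data. Alternatives changed the pseudocount, filter, scaling, arrays, replicate block and integrity covariate (mean of the standardised 5'/3' log2 ratios of the Gapdh, beta-actin and pyruvate carboxylase controls), and 3 arrays with a Gapdh ratio under -0.4 were left out.

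The members and lists were chosen with earlier results of these data known. Followed by ID are the 2 members with the lowest mean 5-day ratio, by a rule that asked for up to 12 with gene symbols, and, chosen after their values were seen, 2 called higher than vehicle at 24 h. The planned gene lists, cell markers, further probe sets of the members' genes and promoters need gene names and were not used here. Figures and ratios used Python 3.11.15 and matplotlib 3.10.9.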

Additional observations from a re-analysis of the deposited data

Results flagged for a closer look

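In 112 groups of 4 arrays (16 members, 7 groups), 3 arrays stood apart from the other three of their group by a gap that was most of the group's whole range, past the 95% limit of Dixon's test, which chance passes in about 1 in 20 groups. Under CP-775146 at 24 h, replicate 1 of member 9 read 538 against 696 to 710 on the others. Under CP-868388 at 5 days, replicate 4 of member 11 read 957 against 704 to 739. Under CP-868388 at 24 h, replicate 1 of member 12 read 152 against 105 to 113. Each came from a different member, and the 5-day array was still below the lowest vehicle array of that member.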

How the results depend on the processing

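The number of members followed the limits of the rule: it was 4 at a 5-day limit of 0.60, 30 at 0.70, 2 with a narrower 24 h window and 35 with a wider one. Scaling each array to 1 median gave 10 members, 4 of them among the 16, and quantile normalization gave 14, 8 of them among the 16. Against the 24 h vehicle mean, chosen after seeing the data, 10 met the limits, and with all 8 vehicle arrays as denominator, also chosen then, 21 did; in each case 3 were among the 16. Group medians gave 21 members and geometric means 19, in each case with 14 of the 16. Without the 3 arrays with a Gapdh ratio under -0.4, all from agonist groups at 24 h, 24 met the limits. Of these, 13 were among the 16 and 11 were others, so the 24 h side of the rule depended on these arrays. Leaving out each of the 30 arrays in turn gave 11 to 22 members. Members 3, 4, 8 and 10 were kept each time, and without vehicle replicate 2 at 5 days 9 of the 16 were.

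All 16 members stayed below vehicle at 5 days in every fit of each agonist, while the number called changed: under CP-775146 it was 12 with quantile normalization and 12 with median centring. Calls fell over all probe sets too: 1279 of 7963 were lower under CP-775146 with quantile normalization, against 1977 in the main fit. The rule used these contrasts on the same arrays, so the direction was largely set beforehand and the counts are a description. Centring moved the median log2 difference of all probe sets for that agonist from -0.11 to 0.07. The call of 162392_R_AT under CP-865520 at 5 days was lost in 9 of 18 alternatives (adjusted p up to 0.134), and those of member 5 in 10 of 18 for CP-868388 and 11 of 18 for CP-865520. No member was called between agonists at 5 days in any alternative.

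Over all probe sets, leaving out 1 array gave 1236 to 1463, 2684 to 3253 and 1296 to 1548 calls against vehicle at 24 h for CP-775146, CP-868388 and CP-865520, and 1682 to 3086, 2468 to 3062 and 2921 to 3339 at 5 days. Between agonists at 24 h it gave 462 to 1592 calls (1 to 2 members) for CP-775146 and CP-868388, 0 to 41 (0 to 1) for CP-775146 and CP-865520, and 1195 to 2345 (2 to 6) for CP-868388 and CP-865520. At 5 days these pairs gave 5 to 199, 2 to 85 and 0 to 6 calls, with 0 members.

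For CP-775146 and CP-865520 at 24 h, 8 calls became 0 without a filter, 17 with a stricter filter, 1 with quantile normalization, and 0 with centring, with the compared groups alone and without the 3 low-Gapdh arrays; 1 member was called with a pseudocount of 1 and with the stricter filter. For CP-775146 and CP-868388 at 24 h, 1304 calls became 6 with the covariate for integrity and 35 without the 3 arrays, with 0 members in both. For CP-868388 and CP-865520 at 24 h, 2223 calls became 1400 with the compared groups alone, 521 with the covariate and 627 without the 3 arrays, and the 5 members became 2 with quantile normalization, 2 with centring, 1 with the compared groups alone, 2 with the covariate and 2 without the 3 arrays. The 3234 calls of CP-868388 against vehicle at 24 h became 1538 with the covariate.

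At 5 days, the 6 calls between CP-775146 and CP-868388 became 3 with the stricter filter, 15 with quantile normalization and 2 with the compared groups alone. The 2 calls between CP-775146 and CP-865520 became 0 with the stricter filter, with centring and with the compared groups alone, 10 with quantile normalization and 4 without the 3 arrays. The 5 calls between CP-868388 and CP-865520 became 0 with the stricter filter, with centring and with the compared groups alone, 3 with the covariate and 10 without the 3 arrays. The cause of these shifts was not tested.

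Samples of 1 replicate number did not deviate together (mean r = -0.0187 over 98 pairs with the same number and 0.00621 over 294 others), so the numbers were not taken as pairs. With the replicate number as a block, 15 members were called lower than vehicle at 5 days under each agonist. The rule used these contrasts, so this count is a description. In the same fit the calls over all probe sets were 0 for CP-775146 and CP-865520 at 24 h and 1 for CP-868388 and CP-865520 at 5 days.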
